A study of Mus musculus with 10 samples.

Results

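The epithelial mucosal defence genes described here in the neonatal pancreas are Dmbt1, Pigr, Muc1, Tff2, Duox2, Duoxa2, Nos2, Ceacam1, Slpi and Lypd8. These 10 were chosen by symbol as epithelial defence genes known to respond to interleukin 22 (IL-22) in the gut, and all are among the 24062 genes listed in the count files. Of the 10, 6 had at least 5 counts in every library and entered the test across genes (Dmbt1, Muc1, Tff2, Nos2, Ceacam1 and Slpi), and 4 did not (Pigr, Duox2, Duoxa2 and Lypd8). The study asked how expression of interleukin 23 (IL-23) in early life affects newborn mice. RNA of the whole pancreas was sequenced at postnatal day 5 (P5). The WT group holds 5 wild type C57BL/6 libraries. The KSR23 group holds 5 C57BL/6 libraries of the same age from mice that carry the R23 cassette, which encodes both IL-23 subunits (p19 and p40) in the ROSA26 locus behind a floxed STOP signal, together with Cre under control of the human K14 promoter (hK14-cre). K14 is a keratin of keratinocytes, so that the cassette is switched on in skin and other K14+ epithelia and not by design in the pancreas. WT mice were littermate controls, and the labels number 5 replicates per group, which are taken as separate mice.

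IL-22 is made by lymphocytes under the influence of IL-23 and acts on epithelial cells, which carry its receptor of the chains encoded by Il22ra1 and Il10rb. The receptor signals mainly through the transcription factor STAT3, and its targets in gut epithelium include antimicrobial proteins, mucins and the enzymes that make reactive oxygen and nitrogen species. Acinar cells of the pancreas are rich in the same receptor. The genes described here fall into 4 roles: secreted or surface-bound mucus components (Muc1, Tff2), proteins that bind or transport bacteria and antibodies at the surface (Dmbt1, Pigr, Ceacam1, Lypd8), a secreted antiprotease (Slpi), and oxidant-producing enzymes (Duox2 with its maturation factor Duoxa2, and Nos2).

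The promoters of Pigr, Slpi, Ceacam1 and Muc1, the members that rose past an adjusted p of 0.05 and have a RefSeq promoter entry, are printed below, because STAT factors, which act downstream of the IL-22 receptor, bind a short palindrome that can be looked for in them. Each line gives the 150 bases that precede the annotated start site on the coding strand (RefSeq, GRCm38.p6), read 5′ to 3′, with the letters TATAAA in capitals where they occur. Entries were found for 7 of the 10 members, with 8 start sites. For Slpi the RefSeq start lies inside the GENCODE M21 locus given below, whose minus-strand start is at chr2:164389095.
Pigr, chr1:130826534-130826683, plus strand: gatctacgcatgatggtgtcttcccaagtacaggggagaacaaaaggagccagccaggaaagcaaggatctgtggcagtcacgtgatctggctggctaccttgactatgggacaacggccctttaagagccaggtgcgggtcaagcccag
Slpi, chr2:164356508-164356657, minus strand: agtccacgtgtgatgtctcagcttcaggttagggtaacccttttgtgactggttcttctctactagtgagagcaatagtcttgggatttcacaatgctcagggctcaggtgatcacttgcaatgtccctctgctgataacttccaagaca
Ceacam1, chr7:25477626-25477775, minus strand: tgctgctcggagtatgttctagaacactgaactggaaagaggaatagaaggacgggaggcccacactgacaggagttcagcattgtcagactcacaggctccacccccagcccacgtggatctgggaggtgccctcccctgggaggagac
Muc1, chr3:89228906-89229055, plus strand: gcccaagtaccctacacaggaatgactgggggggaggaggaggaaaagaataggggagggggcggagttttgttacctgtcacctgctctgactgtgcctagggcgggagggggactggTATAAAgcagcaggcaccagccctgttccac

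Both strands of each 300-base window, from 250 bases before to 50 bases after the start, were searched for the STAT-type palindrome TTCNNNGAA, for its variant with 4 bases between the same arms, and for TATAAA. The first was present in the window of 1 member, Pigr, just downstream of the start site, at positions 40 to 48 with the first transcribed base counted as 1. The stretch from position 30 to 50 is shown with the palindrome in capitals.
Pigr, positions 30 to 50: cagtagtgccTTCCTGGAAgc
Of 32851 promoter windows of the same length, 8.30% hold TTCNNNGAA, 6.95% hold the variant and 13.6% hold TATAAA, so that such matches are not rare. TATAAA stands at positions -31 to -26 of Muc1 and -30 to -25 of Duoxa2, and the variant was not found in the 8 member windows. These matches are descriptions of letters, and binding was not measured.

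Between 26830235 and 33189132 counts fell on genes in the WT libraries and between 16715976 and 57784136 in the KSR23 libraries, the lowest being KSR23 replicate 3. A count of 3, taken here as the least a library can show, corresponds to 0.0519 to 0.179 CPM (counts per 1000000 counts), and this covers counting error alone, since PCR copies cannot be told apart. Values below are CPM on library sizes scaled by edgeR's TMM method unless stated. Il23a, which encodes p19, had 1 to 9 counts in WT and 21 to 48 in KSR23 libraries, whereas Il12b, which encodes p40, had 0 to 7 and 3 to 13. In CPM, Il23a was 0.0373 to 0.316 in WT and 0.857 to 1.21 in KSR23 libraries, without overlap, while the groups overlapped for Il12b. Il22 itself was near the limit of detection, at 0 to 1 count in WT and 1 to 3 in KSR23 libraries. Acinar markers marked the tissue as pancreas, with a summed level of 193459 to 208227 CPM in WT and 126243 to 159081 CPM in KSR23 libraries.

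KSR23 pancreas had more RNA of the luminal bacteria-binding protein Dmbt1, the antibody transporter Pigr, the adhesion receptor Ceacam1, the antiprotease Slpi and the mucin Muc1, and less of the trefoil peptide Tff2. Of the 6 members tested, 4 rose and 1 fell by edgeR's quasi-likelihood test at an adjusted p under 0.05, against a background of 31.0% of all 13882 tested genes (16.2% higher and 14.8% lower). The median log2 fold change (KSR23 over WT) of the 6 was 0.94, and that of all tested genes was -0.01. Counting members below the filter as well, the 2 groups of libraries did not overlap for 7 of the 10, of which 6 were above WT and 1 was below. The same held for 15.2% of the 19227 genes with any count that could be fitted (8.53% above and 6.67% below). The 10 members were chosen with earlier results of these data known, so these counts are a description and not a test.

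**Figure D1:**
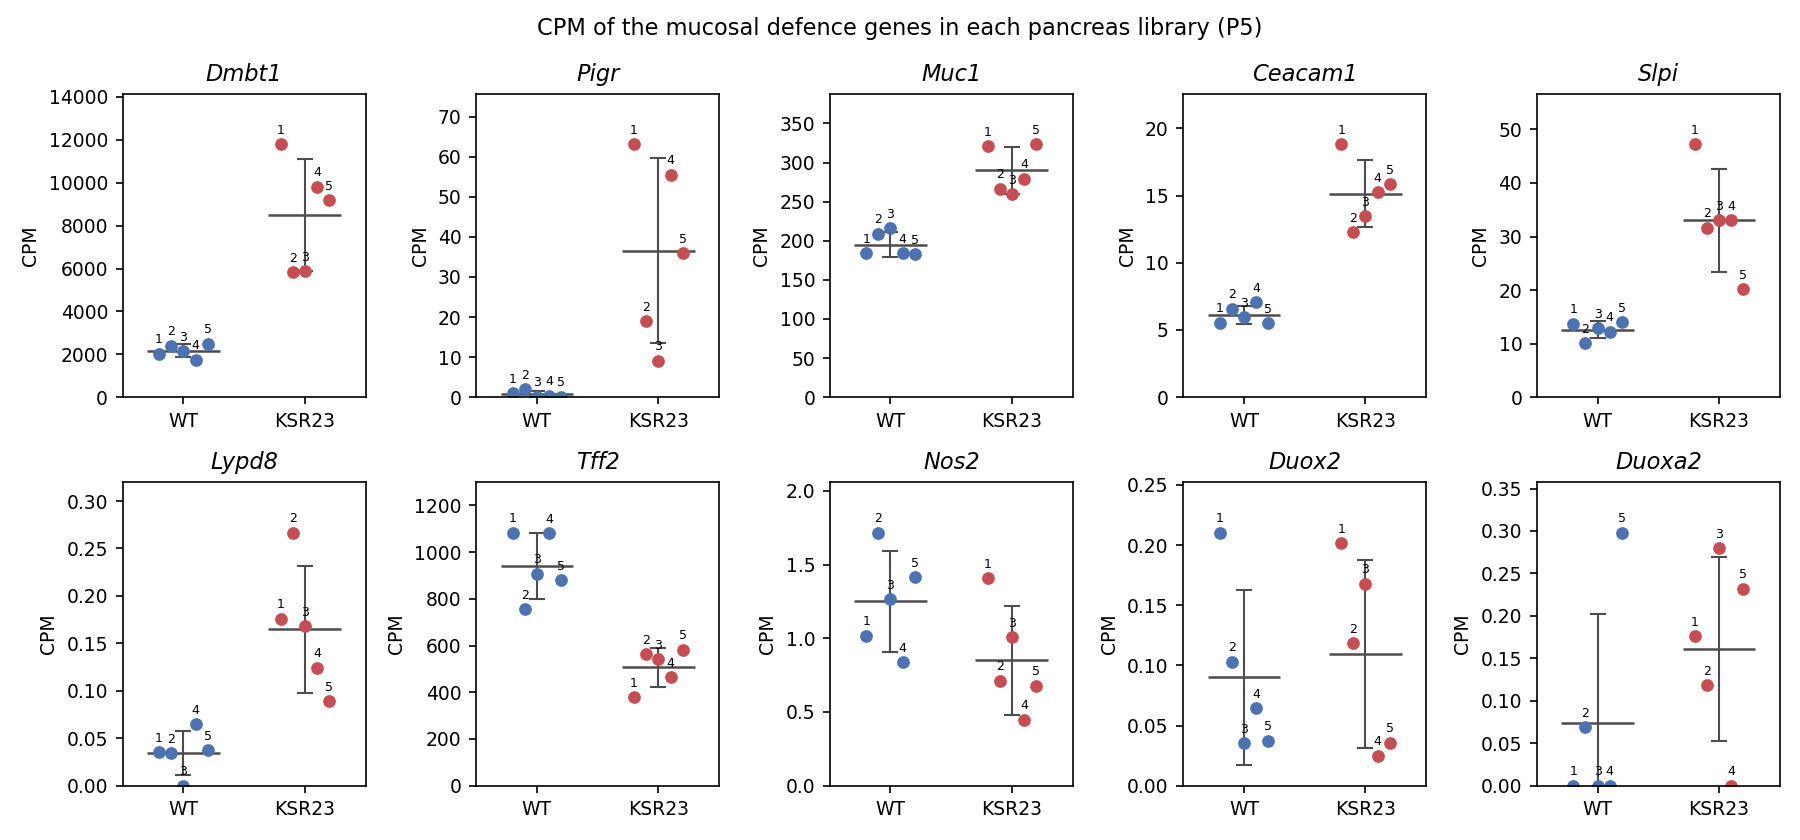
CPM (y axis, linear from 0, its own scale in each panel) of each of the 10 genes in the 5 WT and 5 KSR23 pancreas libraries. Points are libraries numbered by replicate, the long line is the mean and the bar is ± 1 SD. The groups do not overlap for Dmbt1, Pigr, Muc1, Ceacam1, Slpi, Lypd8 (KSR23 above) and Tff2 (KSR23 below), and they overlap for Nos2, Duox2 and Duoxa2.

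Dmbt1 (deleted in malignant brain tumours 1, also called salivary agglutinin or gp340) encodes a secreted scavenger receptor that binds bacteria and mucins at epithelial surfaces. The gene lies on the plus strand of chromosome 7 (GRCm38, chr7:131032053-131121630). The 5 WT libraries gave 2027, 2396, 2152, 1751 and 2497 CPM, in the order of replicates 1 to 5. In the 5 KSR23 libraries the values were 11803, 5839.6, 5864, 9809 and 9184 CPM. The lowest KSR23 library lay above the highest WT library, and replicates 2 and 3 stood together below the other 3. The mean rose from 2164 ± 298 to 8499.9 ± 2604 CPM (SD, n = 5 each), a log2 fold change of 1.97 ± 0.176 (SE), or 3.93-fold (edgeR's quasi-likelihood test, adjusted p = 1.16e-07). Of the 13882 tested genes, 85 had a higher log2 fold change. As a share of all gene counts, Dmbt1 went from 0.210% ± 0.0351 to 0.879% ± 0.284 (SD), the largest share held by any of the 10 members in KSR23 libraries.

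Pigr encodes the polymeric immunoglobulin receptor, which carries dimeric IgA across epithelial cells into the lumen, and it lies on chromosome 1 (chr1:130826684-130852249, plus strand). The WT libraries held 29, 56, 3, 10 and 4 counts. The KSR23 libraries held 2510, 639, 163, 2231 and 2015 counts. In CPM this was 0.105 to 1.92 in WT and 9.12 to 63.2 in KSR23, so that WT replicates 3 and 5 were close to the least a library can show and no KSR23 library was. Because 2 WT libraries had fewer than 5 counts, Pigr did not enter the main test, and it was fitted together with all 19227 genes without a filter. The log2 fold change was 5.69 ± 0.514 (SE), or 51.6-fold (edgeR's quasi-likelihood test, adjusted p = 2.39e-08, where 22.9% of the genes fitted had an adjusted p under 0.05), and 14 of the 19227 genes had a higher value. A two-sided exact permutation test of the CPM over the libraries gave p = 0.00794, the smallest that 5 against 5 can give, and 30.3% of the same genes had a p under 0.05 in it.

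The spread of Pigr was wide in both groups. WT replicates 1 and 2 gave 1.02 and 1.92 CPM and the other 3 gave 0.105 to 0.323 CPM. The same 2 WT libraries held the most RNA of the antimicrobial lectin Reg3b, at 692 and 729 CPM against 4.73 to 14.6 CPM in the other 3. Leaving out WT replicate 2 raised the log2 fold change to 6.51, and leaving out any other single library gave 5.41 to 5.93. Among the KSR23 libraries, Pigr was lowest in replicate 3, which was also the shallowest library. In all of these fits the adjusted p stayed under 0.05, the highest being 4.37e-07.

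Ceacam1 encodes a carcinoembryonic antigen-related adhesion molecule of epithelial and immune cells, to which several bacteria bind (chr7:25461707-25477603, minus strand). WT libraries gave 5.54, 6.59, 5.94, 7.07 and 5.51 CPM. KSR23 libraries gave 18.8, 12.3, 13.5, 15.2 and 15.9 CPM. The groups were apart by more than their spreads, and the mean went from 6.13 ± 0.682 to 15.1 ± 2.50 CPM (SD, n = 5 each). The log2 fold change was 1.31 ± 0.124 (SE), or 2.47-fold (edgeR's quasi-likelihood test, adjusted p = 2.79e-07). By sequence, 59.4% of the 75-base windows of its longest transcript occur in no other annotated gene, the rest being shared with Ceacam2 and Ceacam10. Reads from the shared windows could be lost from the uniquely aligned counts. Ceacam2 had at most 4 counts and Ceacam10 at most 18 in any library.

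Lypd8 encodes a surface protein of colon epithelium that binds flagellated bacteria and keeps them off the epithelium (chr11:58379043-58390728, plus strand). It had 1, 1, 0, 2 and 1 counts in WT libraries and 7, 9, 3, 5 and 5 counts in KSR23 libraries. Every KSR23 library was above every WT library in CPM (0.0893 to 0.267 against 0 to 0.0645), yet all values are at or within a few counts of the least that a library can show. The exact permutation test gave p = 0.00794, whereas the unfiltered edgeR quasi-likelihood fit gave a log2 fold change of 2.11 ± 0.781 (SE) with an adjusted p of 0.0557. The permutation p is not adjusted for the number of genes, and the p of the edgeR quasi-likelihood fit before adjustment was 0.0132. Lypd8 was thus under 0.05 in both tests before adjustment, and not in the edgeR fit after it.

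Slpi, the secretory leukocyte protease inhibitor, is an antiprotease and antimicrobial protein of mucosal fluids made by epithelial cells and by myeloid cells (chr2:164354070-164389095, minus strand). WT libraries gave 13.7, 10.1, 12.9, 12.2 and 14.0 CPM. KSR23 libraries gave 47.3, 31.6, 33.1, 33.1 and 20.2 CPM. The groups did not overlap, with KSR23 replicate 5 the nearest to WT and replicate 1 the farthest. The mean rose from 12.6 ± 1.57 to 33.0 ± 9.61 CPM (SD, n = 5 each), a log2 fold change of 1.39 ± 0.161 (SE), or 2.62-fold (edgeR's quasi-likelihood test, adjusted p = 3.01e-06).

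Muc1, a mucin anchored in the luminal membrane of duct and acinar cells, rose by less (chr3:89229057-89233381, plus strand). The WT libraries lay between 183 and 216 CPM, with a mean of 195 ± 16.0 (SD, n = 5). The KSR23 libraries lay between 259.7 and 324 CPM, with a mean of 290.0 ± 30.2 (SD, n = 5). No library of either group came within the range of the other. The log2 fold change was 0.57 ± 0.0779 (SE), or 1.49-fold (edgeR's quasi-likelihood test, adjusted p = 2.06e-05), and 1095 of the 13882 tested genes had a higher value.

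Tff2 (trefoil factor 2, formerly spasmolytic polypeptide) encodes a small secreted peptide first isolated from pancreas, which stabilises mucus and aids epithelial repair. It was the member that fell (chr17:31141049-31144282, minus strand). The 5 WT libraries gave 1083, 756, 908, 1079.7 and 879 CPM. The 5 KSR23 libraries gave 379, 563, 540.4, 465 and 582 CPM. All KSR23 values were below the lowest WT value, and KSR23 replicate 1, the highest library for Dmbt1, Pigr, Ceacam1 and Slpi, was the lowest for Tff2. The mean went from 941 ± 140 to 506 ± 83.5 CPM (SD, n = 5 each), a log2 fold change of -0.90 ± 0.117 (SE), or 1.86-fold lower (edgeR's quasi-likelihood test, adjusted p = 1.27e-05), and 322 of the 13882 tested genes had a lower value.

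The oxidant-producing enzymes did not pass the test. Nos2, the inducible nitric oxide synthase of activated macrophages and epithelia (chr11:78920787-78960254, plus strand), gave 0.839 to 1.72 CPM in WT and 0.448 to 1.41 CPM in KSR23 libraries. The ranges overlapped, with a log2 fold change of -0.57 ± 0.309 (SE) and an adjusted p of 0.174 by edgeR's quasi-likelihood method, and p = 0.111 in the exact permutation test. Nos2 was highest in KSR23 replicate 1 among the KSR23 libraries, and without this library the log2 fold change was -0.86 and the adjusted p 0.0458.

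Duox2, the dual oxidase that releases hydrogen peroxide at mucosal surfaces, and Duoxa2, the factor it needs to leave the endoplasmic reticulum, lie head to head on chromosome 2 (chr2:122279247-122298449, minus strand, and chr2:122298900-122302885, plus strand). Duox2 had 1 to 6 counts in WT and 1 to 8 counts in KSR23 libraries. Duoxa2 had 0 to 8 counts in WT and 0 to 13 counts in KSR23 libraries. A difference was not detectable at this depth for either gene: the unfiltered log2 fold changes were 0.19 ± 0.794 (SE) for Duox2 and 1.09 ± 0.988 (SE) for Duoxa2, with adjusted p of 0.893 and 0.464 by edgeR's quasi-likelihood method. For Duoxa2, 682 of 1592 exon bases (42.8%) overlap Duoxa1 on the opposite strand and 59.9% of the 75-base windows of its longest transcript are found in no other gene, so that its counts could include or lose reads of that neighbour.

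**Figure D2:**
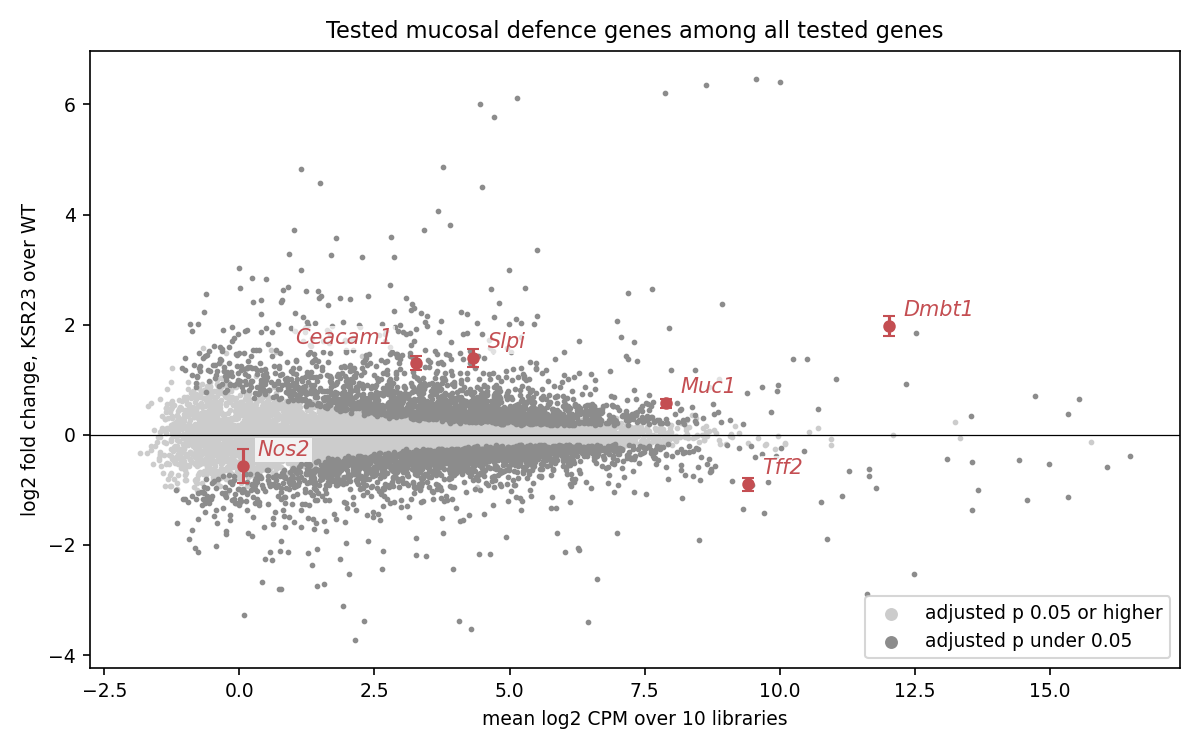
Log2 fold change (y axis, KSR23 over WT) against the mean log2 CPM over 10 libraries (x axis) for the 13882 tested genes, in light grey where the adjusted p was 0.05 or higher and in dark grey where it was lower. Red points with ± 1 SE bars are the 6 tested members, of which Dmbt1 (1.97) lies highest, Tff2 (-0.90) lowest, and Nos2 (-0.57) among the light grey points.

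Levels of different genes are compared per kilobase of exon, that is CPM divided by the summed exon length in GENCODE M21. In WT libraries the order of mean length-scaled levels was Tff2, Dmbt1, Muc1, Slpi, Ceacam1, Nos2, Pigr, Duoxa2, Lypd8 and Duox2. The first 5 were each separated from the next gene in every library, while Nos2 and the 4 genes after it overlapped their neighbours. Tff2 stood at 1612 ± 240 CPM per kb (SD, n = 5), rank 29 of 22750 genes with a known length. Dmbt1 stood at 307 ± 42.2 CPM per kb, rank 52, and Muc1 at 83.2 CPM per kb, rank 234. Tff2, Dmbt1 and Muc1 were thus among the abundant RNAs of the WT pancreas at P5.

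In KSR23 libraries the length-scaled order changed at the top and in the middle. Dmbt1 came first with 1204 ± 369 CPM per kb (SD, n = 5), rank 31, and Tff2 second with 866 ± 143 CPM per kb, rank 37, although the ranges of both genes overlapped. Per kilobase, Tff2 exceeded Dmbt1 by 3.81 to 7.45 times in every WT library, and by 0.388 to 1.17 times in the KSR23 libraries, where 2 of the 5 still had more Tff2. Pigr moved from place 7 to place 5, between Slpi and Ceacam1, and from rank 13172 to rank 2563 among all genes, with mean length-scaled levels of 0.175 and 9.08 CPM per kb. Its KSR23 range overlapped that of Ceacam1 and not that of Slpi. The length-scaled level of Ceacam1 may be too low, so its place next to Pigr is uncertain. The summed exons of Ceacam1 hold 5806 bases against 3656 in its longest transcript, of whose 75-base windows 59.4% are unique. For Pigr the same values are 4025 bases, 3849 bases and 98.9%. Nos2, Lypd8, Duoxa2 and Duox2 were the 4 lowest in KSR23 libraries, each overlapping the next.

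**Figure D3:**
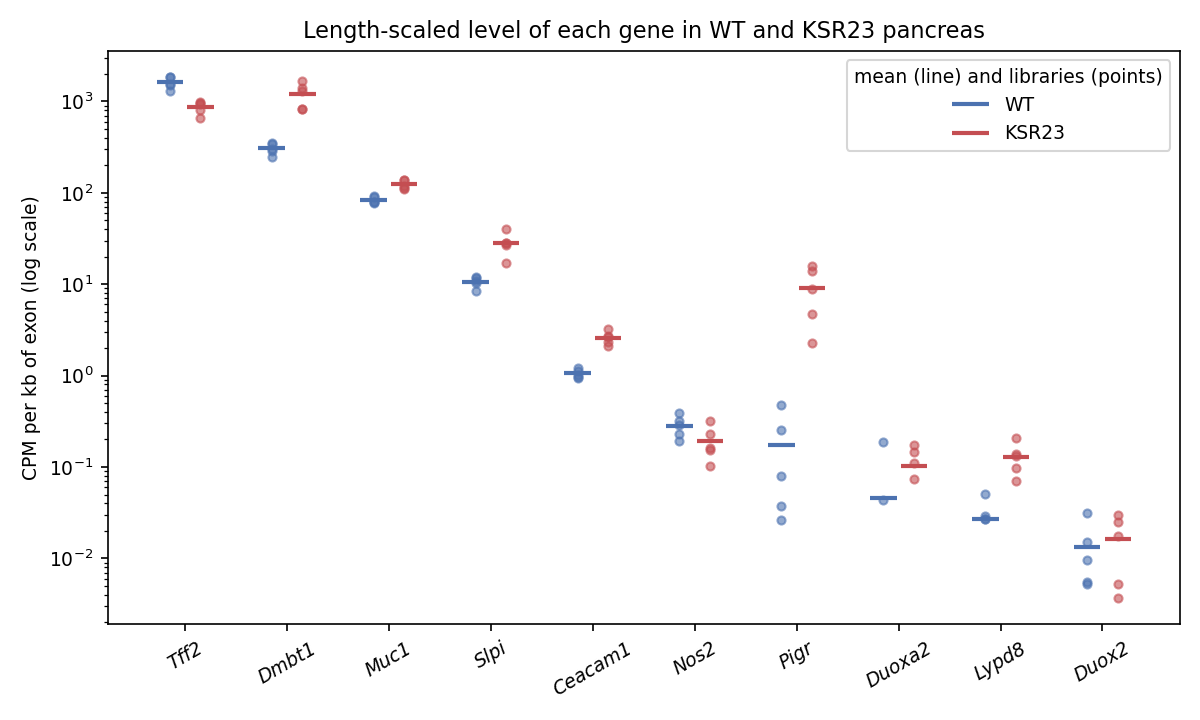
Length-scaled level of each gene (y axis, CPM per kb of exon, log scale), with WT in blue and KSR23 in red, short lines for the mean of 5 libraries and points for libraries. Libraries with 0 counts (Duoxa2 and Lypd8) cannot be drawn on a log axis and are left out of the points but not of the means. Tff2 is first in WT at 1612 and Dmbt1 first in KSR23 at 1204 CPM per kb.

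The KSR23 libraries did not vary alike for all members. KSR23 replicate 1 had the highest Dmbt1, Pigr, Ceacam1 and Slpi and the lowest Tff2 of its group, whereas Muc1 was highest in replicate 5. Without KSR23 replicate 1, the log2 fold changes were 1.82 for Dmbt1, 1.22 for Slpi, 1.21 for Ceacam1, 0.53 for Muc1 and -0.82 for Tff2. Likeness of pattern was measured for the 3 tested members with the highest length-scaled level in KSR23 as the root mean square difference, over the 10 libraries, of log2 CPM centred on each gene's WT mean. Centred in this way, the measure depends largely on the group difference, so that genes with a like fold change come out as near. Shared regulation was not tested. Dmbt1 was most like Trf (transferrin, 0.188), Vnn1 (a pantetheinase, 0.198) and Sbno2 (a transcriptional regulator downstream of STAT3, 0.210), beside a median of 1.42 over 13175 other tested genes. The log2 fold changes of these 3 were 1.95, 1.83 and 2.07, near the 1.97 of Dmbt1. Tff2 was most like Ppp1r1a (0.117), Tmem97 (0.145) and the trypsinogen Try10 (0.149), beside a median of 0.702. Muc1 was most like Ipo4 (0.0629), Atg13 (0.0675) and Marveld3 (0.0747), beside a median of 0.484. The other tested members were farther off, with Ceacam1 at 0.519 and Slpi at 0.570 from Dmbt1.

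Relatives of the members were read from the same fit, in which 16.2% of all 13882 tested genes were higher and 14.8% lower. These shares are the background for each list count here and below. Among mucins, trefoil factors and genes of mucus secretion, 6 of 14 listed genes were tested and 3 rose, none of the 6 falling in edgeR's quasi-likelihood test (4 had an unadjusted p under 0.05, and the likelihood ratio test, or leaving out WT replicate 1, called 1 lower). Clca1, a secreted mucus-processing protease of goblet cells, went from 1.56 to 14.7 CPM (log2 fold change 3.23 ± 0.199, SE). Muc20, another membrane mucin, went from 0.733 to 4.74 CPM (2.69 ± 0.257). Agr2, a disulfide isomerase needed for mucin folding, went from 17.7 to 76.1 CPM (2.11 ± 0.238). The membrane mucin Muc4 had a log2 fold change of -0.72 with an adjusted p of 0.0702, and Muc13 was not tested. Unlike Tff2, the other two trefoil factors were scarcely present, since Tff1 had 0 counts in all libraries and Tff3 at most 7. Muc6, chosen after its values were seen, had 1 to 7 counts in WT and 24 to 84 in KSR23 libraries.

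Among NADPH oxidases, nitric oxide synthases and superoxide dismutases, 13 of 18 were tested, of which 8 rose and 1 fell. Noxa1 and Noxo1, the activator and organiser subunits of epithelial NADPH oxidase, had log2 fold changes of 2.02 ± 0.137 (SE, 22.3 to 89.8 CPM) and 1.42 ± 0.113 (4.59 to 12.3 CPM). Their catalytic partner Nox1 had at most 3 counts in any library. Extracellular superoxide dismutase Sod3 (1.12 ± 0.105) and the phagocyte subunit Ncf4 (1.11 ± 0.232) also rose. Duox1 and Duoxa1 were not tested for low counts, and Nos3, the endothelial synthase, had a log2 fold change of 0.17 with an adjusted p of 0.446. Nos1 had at most 11 counts in any library.

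Of the CEACAM and Ly6 family surface proteins, 7 of 17 were tested, with 2 higher and 1 lower. These few calls, and those of the antiproteases below, stand beside 31.0% called among all 13882 tested genes. Lypd6, a Ly6 relative of Lypd8 that modulates Wnt signalling, fell by 1.92 ± 0.239 (SE) on the log2 scale, from 3.23 to 0.859 CPM. Ly6e, a Ly6 family surface antigen, rose by 1.18 ± 0.0897 and the urokinase receptor Plaur by 1.08 ± 0.148. Among antiproteases, 8 of 12 were tested and 3 rose, with none lower in edgeR's quasi-likelihood test (5 had an unadjusted p under 0.05, and 1 was called lower by the likelihood ratio test, by DESeq2, with the 50 highest genes left out of the library size, and without WT replicate 2 or KSR23 replicate 4). The WAP-domain genes Wfdc18 (3.26 ± 0.178, 1.02 to 9.94 CPM) and Wfdc2 (1.27 ± 0.115, 6.40 to 15.5 CPM), relatives of Slpi, were among them together with Spink4 (1.35 ± 0.214). Of the genes for IgA transport and for scavenger receptors other than Pigr and Dmbt1, 6 of 9 were tested and 0 passed edgeR's quasi-likelihood test, with 0 at an unadjusted p under 0.05 and 0 called by the likelihood ratio test or DESeq2. Of these, 1 was called higher without KSR23 replicate 5 or with libraries scaled by their totals, and 1 lower without KSR23 replicate 3.

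Further antimicrobial effectors stood at 7 higher and 2 lower of 10 tested. The summed level of the 18 listed was nonetheless lower, at 1423 to 1819 CPM in KSR23 against 2556 to 3136 CPM in WT libraries. Lcn2, a siderophore-binding protein, went from 2.67 to 77.8 CPM (log2 fold change 4.86 ± 0.28, SE). Ltf, S100a9 and Pglyrp1 had log2 fold changes of 2.71 ± 0.594, 2.48 ± 0.482 and 2.47 ± 0.212. Of these, Ltf and S100a9 are counted again among the neutrophil markers below. The 2 that fell, named after their values were seen, were the ribonuclease Ang (-1.13 ± 0.0856) and Zg16 (-1.21 ± 0.0964), a lectin of pancreatic zymogen granules and of intestinal goblet cells. Retnlb and Itln1, goblet cell products that were below the filter and were chosen after their values were seen, had 0 to 1 and 2 to 6 counts in WT libraries and 7 to 66 and 16 to 148 counts in KSR23 libraries.

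In the IL-22 receptor and STAT3 list, 11 of the 18 tested genes rose and 0 fell in edgeR's quasi-likelihood test (15 had an unadjusted p under 0.05 in either direction), with a median log2 fold change of 0.31. Socs3, the feedback inhibitor of STAT3, went from 10.2 to 63.8 CPM (2.65 ± 0.153, SE). Osmr, a receptor chain for oncostatin M, and the kinase Pim1 had log2 fold changes of 1.47 ± 0.151 and 1.27 ± 0.31. Named after their values were seen, Stat3 went from 53.1 to 115 CPM (1.12 ± 0.0803) and Il10rb from 39.0 to 48.6 CPM (0.32 ± 0.0677), whereas Il22ra1 had a log2 fold change of -0.44 ± 0.184 with an adjusted p of 0.0768 (7.03 and 5.17 CPM). Il22ra1 was 5.83 to 9.61 CPM in WT libraries, 7.75 CPM in KSR23 replicate 1 and 4.03 to 4.98 CPM in the other KSR23 libraries. Without KSR23 replicate 1, 1 gene of this list was called lower.

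**Figure D4:**
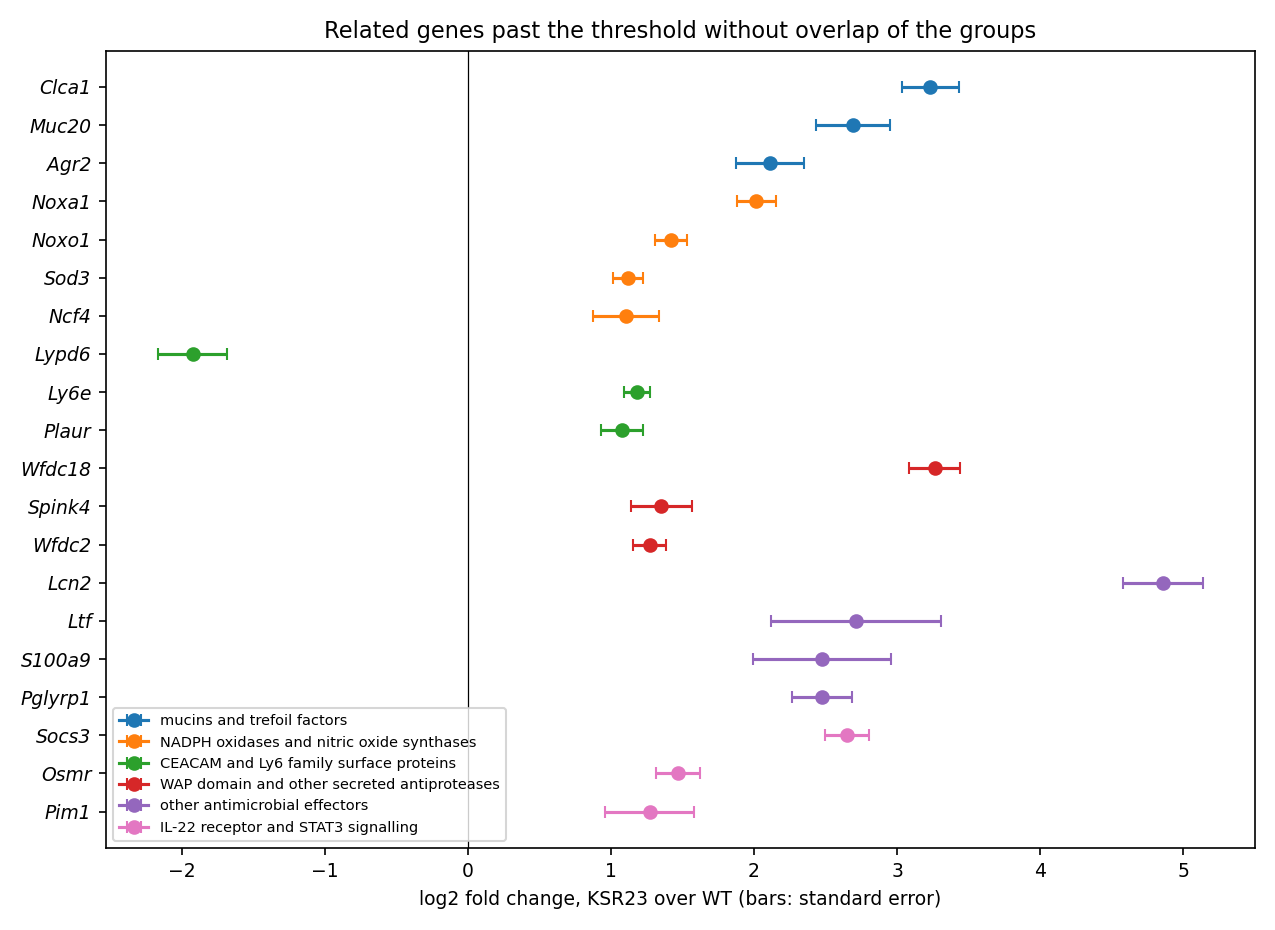
Log2 fold change, KSR23 over WT (x axis, bars ± 1 SE), of the up to 4 genes per related list with the largest size among those with an adjusted p under 0.05 and no overlap between the groups. Colours mark the lists. All lie right of 0 (higher in KSR23) but Lypd6 at -1.92, and Lcn2 at 4.86 is the farthest.

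Markers of cell types moved beside the members, and in RNA of whole tissue fewer cells of a type and less RNA per cell cannot be told apart. Duct markers rose in 13 of 18, with a summed level of 1870 to 2094 CPM in WT and 3074 to 3401 CPM in KSR23 libraries, the largest log2 fold changes being those of Cldn4 (2.61), Tspan8 (1.89), Prom1 (1.43) and Krt18 (0.87). Krt19, the usual duct keratin, was at 119 and 115 CPM (adjusted p = 0.663, edgeR's quasi-likelihood test) and was named after its value was seen. Without KSR23 replicate 3, 1 duct marker was called lower. Acinar markers fell in 9 of 12 and rose in 1, and islet markers fell in 6 of 8 and rose in 1. The part of these shifts in the values of Muc1, Dmbt1, Pigr, Ceacam1 and Tff2 was not tested.

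Neutrophil markers, which include Ltf and S100a9, rose in 8 of 9 tested. Their summed level was 16.8 to 44.8 CPM in WT libraries and 54.6 to 455 CPM in KSR23 libraries. The top value was in replicate 3, and the next highest was 111 CPM, in replicate 5. In KSR23 replicate 3 Slpi was 33.1 CPM, the median of the KSR23 libraries. Ceacam1 was 13.5 CPM, below their median, and Pigr was 9.12 CPM, the lowest of them. Macrophage markers rose in 8 of 11 and fell in 1, with summed levels that overlapped (290.4 to 344 and 335 to 478 CPM). Lymphocyte markers rose in 2 and fell in 1 of 7 tested, beside 31.0% called among all tested genes, with overlapping sums. In place of 2, 1 rose with DESeq2, with the replicate block, without WT replicate 1, 2 or 4 or without KSR23 replicate 1, 2, 3 or 5, and 3 rose with no filter. The part of these cell types in the values of Slpi, Ceacam1 and Nos2 was not tested.

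The pancreas lies against the gut, whose epithelium uses the same defence genes. Of 16 intestinal epithelium markers 5 were tested and 3 rose. That number was 1 without WT replicate 1, without WT replicate 2 or without WT replicate 4, and 6 with no filter. The summed level of the 16 was 229 to 271 CPM in WT and 294 to 392 CPM in KSR23 libraries, without overlap. Its part in the values of the members was not tested. The intestinal regulators Cdx1 and Cdx2, with Sis, Muc2 and Defa24, had at most 10 counts in every library. Of 11 stomach markers, 3 were tested and their summed level was 25.2 to 38.4 CPM in WT and 140.0 to 371 CPM in KSR23 libraries. In WT most of that sum was Pga5 and in KSR23 most was Gkn3. Gkn3 had a log2 fold change of 5.78 ± 0.392 (SE, 4.04 to 222 CPM), while Pga5 fell by 1.78 ± 0.12 (25.4 to 7.39 CPM). Gkn2, Tff1, Muc5ac and Atp4b had 0 counts in all 10 libraries, and Gkn1 and Sox2 at most 10. Gif, chosen after its values were seen, had 0 to 2 counts in WT and 20 to 170 in KSR23 libraries. The summed stomach level was highest in KSR23 replicates 1 and 4 (371 and 337 CPM), the 2 libraries with the most Pigr and Dmbt1, and its part in those values was not tested. Of 6 keratinocyte markers, 2 were tested and 0 passed edgeR's quasi-likelihood test, with 0 at an unadjusted p under 0.05 and 0 called by DESeq2, although 1 was called lower without KSR23 replicate 3. Of 6 endothelium and mesothelium markers 1 rose and 2 fell, and 1 fell when libraries were scaled by their totals or without WT replicate 1 or 2 or any KSR23 library but replicate 2.

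**Figure D5:**
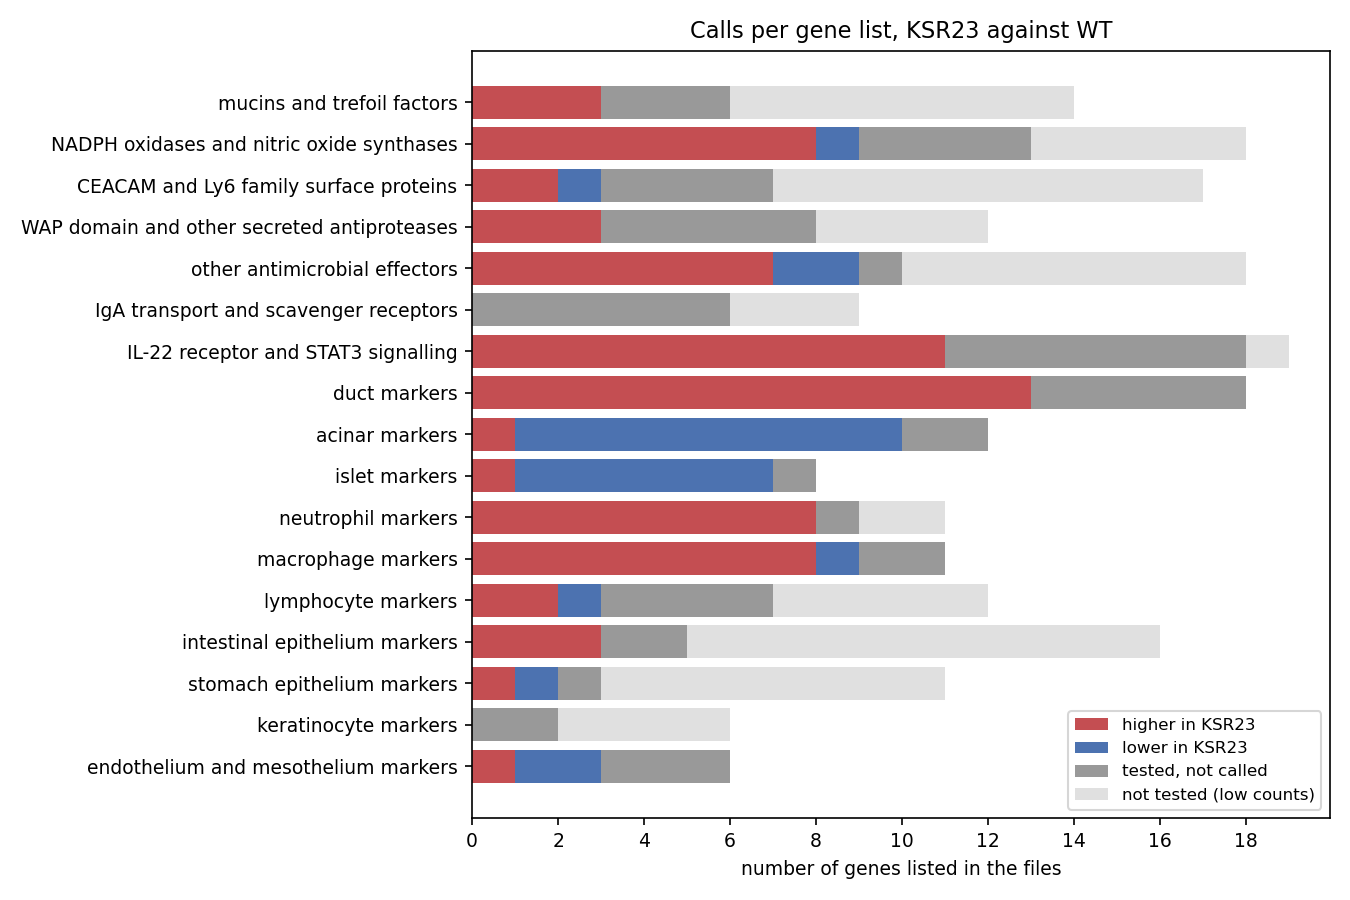
Number of genes (x axis) in each list that were higher in KSR23 (red), lower (blue), tested without a call (dark grey) or below the filter on low counts (light grey), at an adjusted p under 0.05. Duct (13 of 18) and neutrophil (8 of 11) markers are mostly red, acinar (9 of 12) and islet (6 of 8) markers mostly blue. Among all 13882 tested genes, 16.2% were higher and 14.8% lower.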

How the data were processed

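Pancreas RNA of 5 WT and 5 KSR23 mice was measured. Per the labels and the methods, 100 pg of total RNA was primed with oligo-dT (SMART-Seq v4) and amplified over 15 and then 12 PCR cycles, with no molecular identifiers named, so PCR copies count as reads. Reads of 75 bases were placed on mm10 with TopHat2 2.1.0, and the authors deposited HTSeq 0.6.1p1 read counts for each gene, unique alignments only, without normalization. The annotation and strand setting are not given in the sources used here.

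Genes that reached 5 counts in each library (13882 of 24062) were compared with edgeR 4.0.16 in R 4.3.3 (TMM, quasi-likelihood F test, Benjamini-Hochberg adjustment), with group as the only term, and the test was checked on simulated counts. Members below this filter were fitted with no filter and compared by a two-sided exact permutation test. The SE beside a log2 fold change was derived from the test, as the absolute log2 fold change over the square root of the F statistic. The members and the gene lists were chosen with earlier results of these data known, and no list was tested as a set. Named relatives are the up to 4 called genes per list with the largest log2 fold change and no overlap of the groups, with family relatives of the members. Of the genes so chosen, 1 is left out here. Genes of most similar pattern were those with the smallest root mean square difference. Positions are those of GENCODE M21 (GRCm38). Alternatives were DESeq2 1.42.0, the likelihood ratio test, other scalings, other filters, a replicate block and leaving out each library. Unfiltered fits without each library were added after seeing the data. No library was a copy of another of its group (lowest chi-square over degrees of freedom, 11.8).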

Additional observations from a re-analysis of the deposited data

Results flagged for a closer look

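Over the 10 genes, 20 groups of 5 libraries were checked for a library far from the rest, and about 1 in 20 is marked by chance. Here 1 was, since Duoxa2 was at 0.298 CPM (8 counts) in WT replicate 5, against 0 to 0.0687 CPM in the other WT libraries. Duoxa2 shares exon bases with Duoxa1 on the opposite strand, and the values are within a few counts of the detection limit.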

How the results depend on the processing

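The number of genes with an adjusted p under 0.05 was 4299 and ranged from 3497 to 4652 over 19 alternatives (3497 to 4173 with 1 library left out). Scaling by library totals gave 3075 higher and 1161 lower genes, against 2250 and 2049, and the median log2 fold change over all genes moved from -0.01 to 0.09. Members called numbered 5 or 6 over the 19 alternatives, 6 with the looser filters, which admit Pigr, and without KSR23 replicate 1, where Nos2 reached a log2 fold change of -0.86 with an adjusted p of 0.0458 (its adjusted p over alternatives was 0.0458 to 0.357). The count of members whose groups do not overlap was 7 in all 13 alternatives. In 10 of these 1 library was left out, which cannot lower the count, so that only the other scalings could have lowered it.

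The log2 fold changes of Dmbt1 (1.82 to 2.08), Pigr (5.41 to 6.51), Muc1 (0.53 to 0.66), Tff2 (-0.97 to -0.80), Ceacam1 (1.21 to 1.40) and Slpi (1.22 to 1.53) kept their sign and their call under each alternative run. That of Lypd8 was 1.82 to 2.45 (adjusted p 0.0517 to 0.131) and that of Duoxa2 0.77 to 2.94 (0.0781 to 0.631), with no call. Duox2 changed sign, to -0.0048 without WT replicate 3 and -0.22 without KSR23 replicate 1, both without a filter, and its adjusted p was at least 0.579. Of 646 counts of list genes over alternatives, 610 were within 1.5 times the reported one.

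Replicate numbers 1 to 5 name different mice. The correlation of same-numbered libraries was over 0.1 in 0 of 5 pairs, and 1 of 5 WT libraries correlated best with its own number. With the replicate block, 3749 genes and 5 members were called. At the depth of these libraries, genes under about 10 counts, such as Duox2, Duoxa2 and Lypd8, are limited by counting error.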
